A study of Mus musculus with 4 samples.

Results

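The enzymes that hydroxylate proline and lysine residues of collagen were followed in mouse liver together with the collagen chaperone Serpinh1. Members were the 7 genes P4ha1, P4ha2, P4ha3, Plod1, Plod2, Plod3 and Serpinh1, taken wherever the authors' deposited table gives exactly that symbol. They were represented by 10 of the 41174 non-control probes on the array. 9 of the 10 probes, covering all 7 genes, were bright enough to be tested, among 39080 probes that were.

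Total RNA from liver was hybridised to 4 two-colour Agilent arrays, each carrying 1 treated mutant and 1 control animal. The treated group was 4 male C57Bl/6 mice with the genotype given as Wrn mutant, 3 months old, which had drunk water with 0.4% vitamin C since weaning. The control group was 4 untreated wild-type males of the same strain and age. Both groups lived on a reversed light-dark cycle with free access to food and water, and the labels call the animals biological replicates. The mutant RNA was labelled with Cy5 and the wild-type RNA with Cy3 on all 4 arrays, with no dye swap. Untreated mutants and vitamin C-treated wild types were not analysed here, so the effects of genotype, vitamin C and dye cannot be told apart in any ratio below. The labels do not name the Wrn allele.

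Wrn encodes a RecQ-type DNA helicase whose human counterpart is lost in Werner syndrome, a premature ageing disorder. Collagen hydroxylases work inside the endoplasmic reticulum on chains that have not yet folded, and they use iron, oxygen and 2-oxoglutarate. Vitamin C keeps their iron in the reduced state, and without it hydroxylation of collagen fails, as in scurvy. P4ha1, P4ha2 and P4ha3 are alternative catalytic subunits that each pair with P4hb, and their product, 4-hydroxyproline, keeps the collagen triple helix stable at body temperature. Plod1, Plod2 and Plod3 hydroxylate lysines, which then carry sugars or enter cross-links, and Serpinh1 (HSP47) binds folded procollagen and escorts it to the Golgi. In liver, hepatic stellate cells are the main source of fibrillar collagen.

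Each value rests on a single 60-base oligonucleotide per probe, so the identity of the oligonucleotide matters where probes of one gene are compared. The first 30 of the 60 bases are given for the 2 probes each of P4ha1 and P4ha2, which did not behave alike, and for the probes of Plod2 and Serpinh1, the members with the smallest p-values. Sequences are as deposited and are all in lower case because no motif is marked.
P4ha1 A_51_P458067: tggtaactaactagggcccagtcaggtctg
P4ha1 A_52_P593723: ttaatactcaatcaccacatgatgtaaaac
P4ha2 A_52_P663413: cagatatttcaggtagaagatgtctcagtg
P4ha2 A_52_P617707: aggcctcatttaggaaataacatgtcagtt
Plod2 A_51_P396570: ctgaaagcctgggattctgacgcctactgg
Serpinh1 A_51_P287069: ggggaggggaaatatgagcctttgttgctt
Over their full length the 10 member probes had a GC content between 35% and 55%. The longest run of bases that any pair of them shared was 9, between a Plod3 probe and the Serpinh1 probe.

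Among the 7 genes, Plod2 was lower in the livers of the vitamin C-treated Wrn mutants, by 1.16-fold, and it was the only member that passed the test. Serpinh1 was below 0 on every array, with a mean closer to 0, and did not pass. No prolyl 4-hydroxylase subunit passed, nor did Plod1 or Plod3. The measure throughout is the log2 ratio of mutant over wild type on each array after background correction and loess normalisation, so a value below 0 means a lower signal in the mutant. The test was limma's moderated test of the mean ratio against 0, with Benjamini-Hochberg adjustment over the 39080 probes and a threshold of 0.05.

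With 1 of 9 tested probes past the threshold, the family stood close to the array as a whole, on which 13.0% of tested probes passed in either direction, 6.79% lower and 6.19% higher. 3 of the 9 probes had an unadjusted p under 0.05, as did 12775 of all 39080 tested probes, a similar share. The mean ratio was negative for 6 of the 9, against 49.7% of all tested probes. The median of the 9 was -0.12 against 0.00 over all tested probes. 4 of the 9 were lower on all 4 arrays (Plod1, Plod2, P4ha3 and Serpinh1) and 0 were higher on all 4. On the whole array 18.9% of probes were lower on all 4, and 40.4% had the same sign on all 4. In RNA from whole tissue, fewer cells of a type and less RNA per cell cannot be told apart, and this holds for each gene below.

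**Figure D1:**
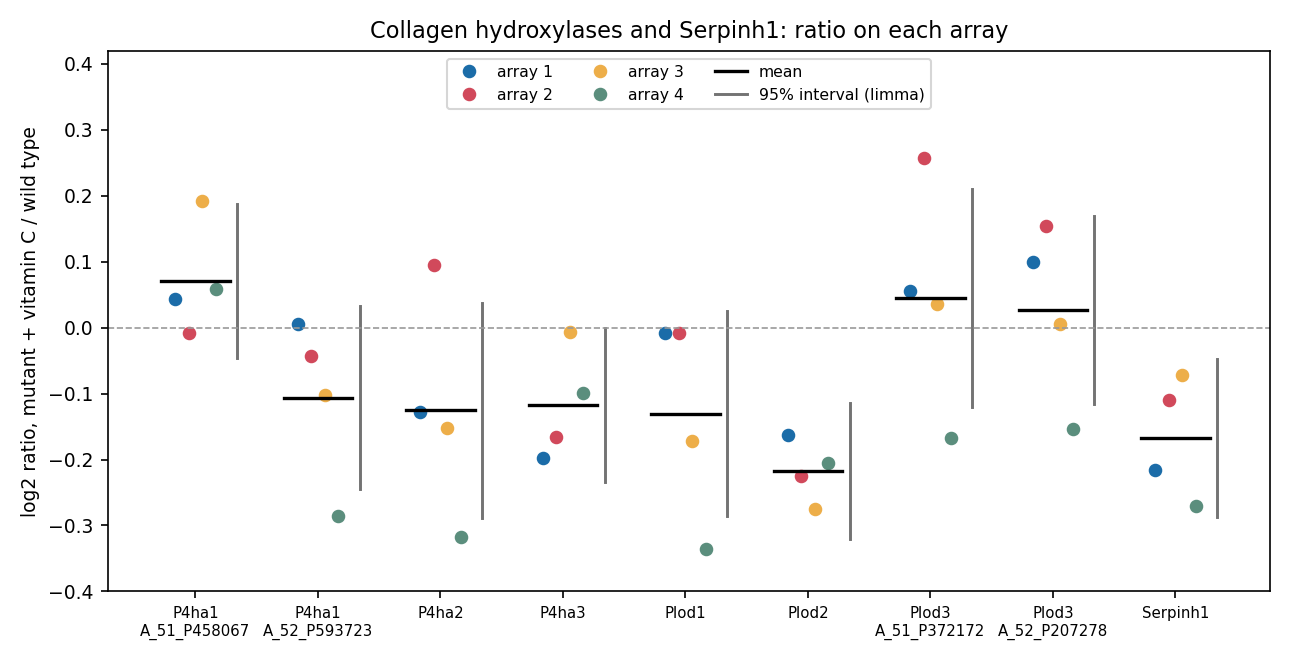
Log2 ratio of vitamin C-treated Wrn mutant over wild type (vertical axis) for each tested probe of the 7 genes, with 1 point per array (4 arrays) and the mean with its 95% confidence interval. The Plod2 points lie together between -0.27 and -0.16, whereas those of Plod3 fall on both sides of 0.

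P4ha1 encodes the most widely expressed of the catalytic subunits. Its brighter probe, A_51_P458067, gave log2 ratios of 0.04, -0.01, 0.19 and 0.06 on arrays 1 to 4. The values straddled 0, with array 3 the highest, and the mean of 0.07 ± 0.09 (SD, n = 4) did not pass (adjusted p = 0.359 with limma). The second probe, A_52_P593723, is dimmer and gave 0.01, -0.04, -0.10 and -0.29, with a mean of -0.11 ± 0.13 (SD, n = 4; adjusted p = 0.253 with limma). The first probe read higher than the second on all 4 arrays, by a mean log2 difference of 0.18 ± 0.16 (SD). The 2 probes therefore had opposite signs, and neither passed.

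P4ha2 encodes an alternative catalytic subunit that is prominent in cartilage and bone. Its probe A_52_P663413 gave -0.13, 0.09, -0.15 and -0.32. Array 2 alone was above 0, and the mean was -0.13 ± 0.17 (SD, n = 4; adjusted p = 0.252 with limma; 95% interval from -0.29 to 0.04). The other probe, A_52_P617707, was not well above background in either channel on any of the 4 arrays and was not tested. The authors' deposited table lists that dim probe at a log2 ratio of 0.58, from array values of 0.01, 0.37, 0.60 and 1.33, with an adjusted p of 0.103. With the background correction used here its 4 ratios were -0.00, 0.17, 0.26 and 0.51. The positive P4ha2 value in the authors' deposited table was thus read from spots that were not well above background, and the brighter probe of the same gene did not share its sign.

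P4ha3 encodes a subunit expressed at low levels in most tissues. Its single probe gave -0.20, -0.17, -0.01 and -0.10. All 4 ratios were below 0, with array 3 close to it. The mean of -0.12 ± 0.08 (SD, n = 4) had an unadjusted p of 0.0488 and an adjusted p of 0.151 with limma, so P4ha3 did not pass.

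Plod1 encodes the lysyl hydroxylase that acts mainly on lysines within the triple helix. Its probe gave -0.01, -0.01, -0.17 and -0.34. Arrays 1 and 2 were at almost 0, so the mean of -0.13 ± 0.16 (SD, n = 4) came from arrays 3 and 4 (adjusted p = 0.216 with limma).

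Plod2 encodes the lysyl hydroxylase of the telopeptides, the ends of the collagen molecule from which hydroxylysine-derived cross-links are built. Its probe gave -0.16, -0.22, -0.27 and -0.21 on arrays 1 to 4. The 4 arrays lay closer together than for any other tested member probe, and all were below 0. The mean was -0.22 ± 0.05 (SD, n = 4; SE 0.04), with a 95% interval from -0.32 to -0.11 and an adjusted p of 0.0279 with limma. By unadjusted p the probe ranked 2252 of 39080. The authors' deposited table gives the same probe a log2 ratio of -0.25 and an adjusted p of 0.0371, in a table where 9.87% of 43379 spots have an adjusted p under 0.05.

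The direction of the Plod2 ratio was the same under every alternative that was run, with values from -0.25 to -0.17. The call depended on the number of arrays and on the processing. Its adjusted p rose to between 0.0655 and 0.0959 when any 1 array was left out. It rose to 0.135 with the scanner's own processed signals (log2 ratio -0.17), and to 0.520 when the channels were treated as separate samples. Calls over all probes also fell in these settings, from 5076 to between 160 and 2270, to 1196 and to 26.

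Plod3 encodes a lysyl hydroxylase that also transfers galactose and glucose onto hydroxylysine. Its brighter probe, A_51_P372172, gave 0.06, 0.26, 0.04 and -0.17. Its second probe, A_52_P207278, gave 0.10, 0.15, 0.01 and -0.15. Both probes were highest on array 2 and below 0 on array 4 alone, and they differed by a mean of 0.02 on the log2 scale. The means were 0.05 ± 0.17 (SD, n = 4; adjusted p = 0.694 with limma) and 0.03 ± 0.13 (SD, n = 4; adjusted p = 0.794 with limma).

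Serpinh1 gave -0.22, -0.11, -0.07 and -0.27. All 4 arrays were below 0, with arrays 1 and 4 the lowest. The mean was -0.17 ± 0.09 (SD, n = 4), a 1.12-fold lower signal, with a 95% interval from -0.29 to -0.05. The adjusted p was 0.0711 with limma, above the threshold, although the unadjusted p was 0.0133.

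Members that share a reaction were compared with each other within arrays, using the brightest probe of each gene, as 3 pairs of prolyl and 3 pairs of lysyl hydroxylases. With 4 arrays the exact two-sided sign-flip permutation test cannot give a p below 0.125, so no pair could pass. Among the lysyl hydroxylases, Plod2 was below Plod3 on all 4 arrays, with a mean difference in log2 ratio of -0.26 ± 0.19 (SD; exact permutation p = 0.125, adjusted over the 6 pairs 0.25). Plod1 was also below Plod3 on all 4 arrays, by -0.18 ± 0.09 (SD; exact permutation p = 0.125, adjusted 0.25). Plod1 and Plod2 differed by 0.09 ± 0.15 (SD; exact permutation p = 0.375, adjusted 0.45), less than the spread between arrays.

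Among the prolyl 4-hydroxylase subunits, P4ha1 lay above P4ha3 on all 4 arrays by 0.19 ± 0.04 (SD; exact permutation p = 0.125, adjusted 0.25). P4ha1 lay above P4ha2 on 3 of 4 arrays, by 0.20 ± 0.22 (SD; exact permutation p = 0.25, adjusted 0.375). P4ha2 and P4ha3 differed by -0.01 ± 0.22 (SD; exact permutation p = 1). For P4ha1 these differences are those of its brighter probe. The second P4ha1 probe had a mean of -0.11, close to P4ha3 at -0.12 and P4ha2 at -0.13. It lay below P4ha3 on arrays 3 and 4, and below P4ha2 on array 2 alone.

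The members moved unequally from array to array. Over the 9 tested probes the median log2 ratio was -0.01 on array 1, -0.01 on array 2, -0.07 on array 3 and -0.21 on array 4. P4ha1 and Plod3 count with 2 probes each in these medians, and with the brightest probe per gene the 7 genes had medians of -0.13, -0.01, -0.07 and -0.21. Ratios below 0 were found for 5, 6, 6 and 8 of the 9 probes on those arrays, against 49.8%, 49.4%, 47.8% and 47.6% of all tested probes. Array 4 had the lowest median either way, and only the brighter P4ha1 probe was above 0 there. Plod2 did not follow this order, since its lowest ratio was on array 3.

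Levels were also read for each animal as normalised log2 intensity in its own channel, which is open to dye bias and cannot be compared between probes. The 2 levels of an array come from the same spots, so differences between arrays and between animals cannot be told apart. For Plod2 the mutant levels were 8.65, 8.32, 8.41 and 8.44, and the wild-type levels were 8.81, 8.55, 8.68 and 8.64 in the animals of arrays 1 to 4. Each mutant was below the wild type on its own array, but the mutant of array 1 exceeded 2 of the wild types, so the groups overlapped. The shift of 0.22 compares with an SD of the levels over the 4 arrays of 0.14 in mutants and 0.11 in wild types.

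For Serpinh1 the mutant levels were 10.89, 11.21, 11.07 and 11.39, against wild-type levels of 11.11, 11.32, 11.14 and 11.66. Both groups were highest on array 4, and they overlapped. Mutant and wild-type levels overlapped for all 9 member probes. On the whole array 7.18% of probes had levels that did not overlap.

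For the 9 tested probes, the highest level in each group came from the animals of arrays 1 and 4. The wild-type animal of array 4 had the highest wild-type level for 5 of the 9 probes (P4ha2, P4ha3, Plod1, Serpinh1 and the second P4ha1 probe), and that of array 1 for the other 4. In mutants the animals of arrays 4 and 1 were highest for 4 and 5 probes. For 8 of the 9 probes the highest mutant and the highest wild type were on the same array. Plod1 is an example, with wild-type levels of 9.31, 9.38, 9.42 and 9.83 and mutant levels of 9.30, 9.37, 9.25 and 9.49. Its wild type of array 4 was above all other animals, and array 4 was also where its ratio was lowest.

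P4ha2 was likewise highest in the wild type of array 4, with wild-type levels of 10.72, 10.36, 10.46 and 11.01 against mutant levels of 10.59, 10.45, 10.31 and 10.69. P4ha3 levels ran from 7.58 to 8.10 in wild types, and in mutants they spanned 0.62 from a lowest level of 7.38. Both P4ha2 and P4ha3 were highest in the array 4 animals of each group. The brighter P4ha1 probe had levels of 10.43, 9.87, 9.92 and 9.95 in wild types and 10.47, 9.87, 10.11 and 10.01 in mutants, highest in the array 1 animals. The brighter Plod3 probe had levels of 12.05, 11.69, 11.82 and 11.98 in wild types and 12.10, 11.94, 11.86 and 11.82 in mutants, again highest in the array 1 animals.

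**Figure D2:**
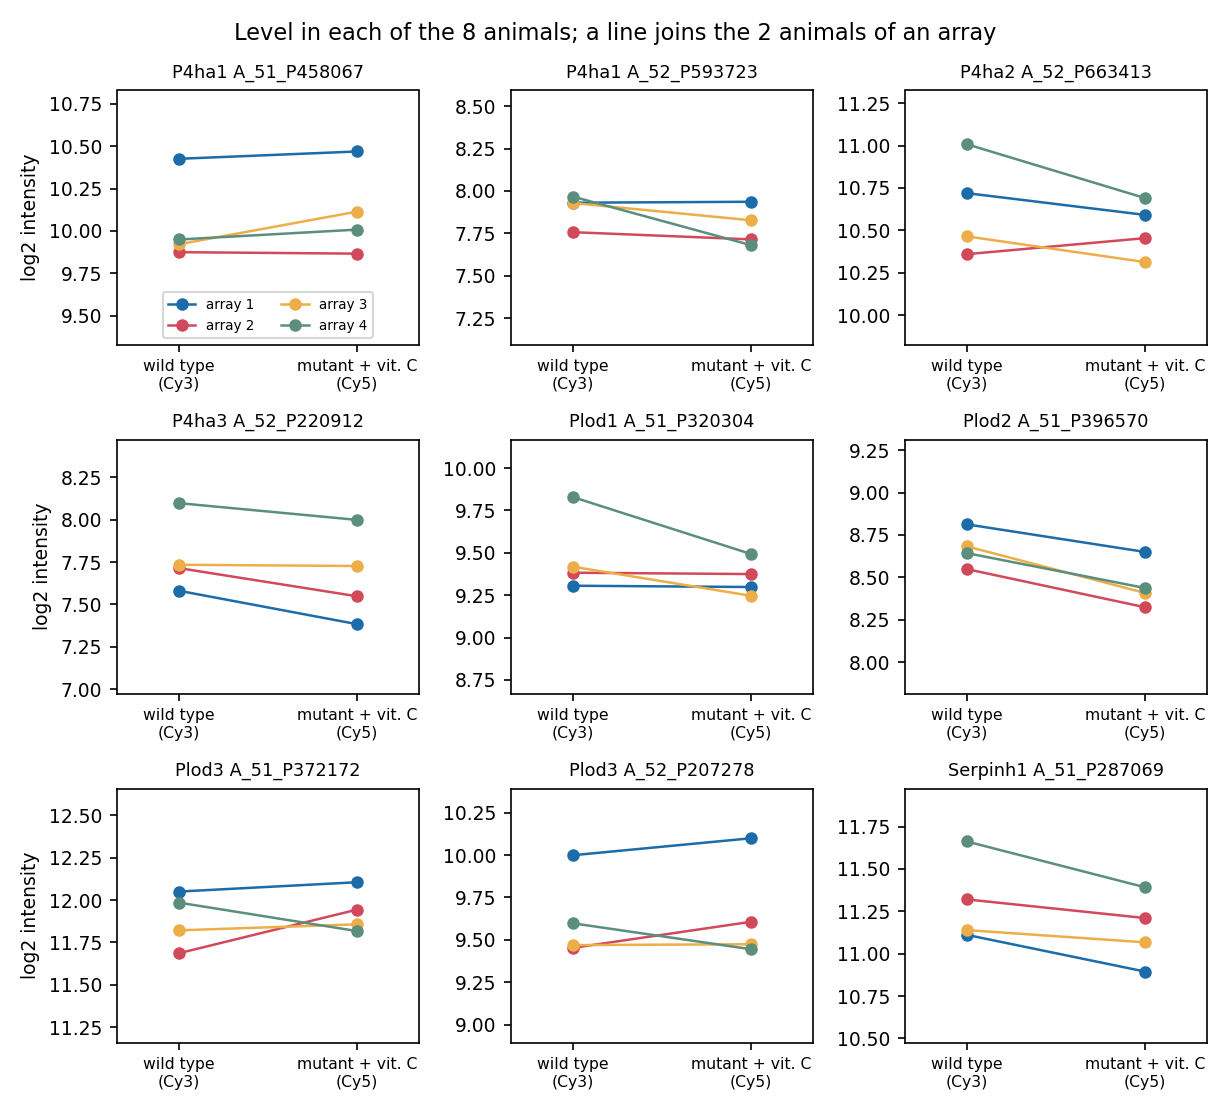
Normalised log2 intensity (vertical axis) of each tested member probe in each of the 8 animals, with mutant and wild-type animals of the same array joined by a line. For Plod2 all 4 lines run lower in the mutant although the groups overlap, and the wild type of array 4 is the highest animal for Plod1, at 9.83.

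The arrays themselves came from 1 slide scanned at 1 time, so no batch could be tested. The share of probes well above background was 82.5% to 95.6% in the mutant channel and 84.2% to 96.1% in the wild-type channel, with array 1 the lowest in both. The SD of the log2 ratios over all probes was 0.18 to 0.24 per array. The mean Plod2 ratio of -0.22 is therefore about the size of the spread over all probes on 1 array.

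Genes that act with the hydroxylases were described from fixed lists, with the brightest tested probe standing for each gene. On that basis, with each probe that lacks a gene name counted as a gene of its own, 5.87% of 26135 passed lower and 6.92% passed higher. The median over all tested probes was 0.00, and 12775 of the 39080 had an unadjusted p under 0.05. Of 10 partners in collagen modification and folding, 1 passed and was lower. This was Fkbp10, a peptidyl-prolyl isomerase of the endoplasmic reticulum that binds procollagen and is needed for telopeptide lysine hydroxylation. Its log2 ratio was -0.31 ± 0.08 (SD, n = 4; adjusted p = 0.0168 with limma), larger in size than that of Plod2.

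P4hb, the protein disulfide isomerase that forms the second subunit of every collagen prolyl 4-hydroxylase, had a ratio of -0.03 ± 0.06 (SD, n = 4; adjusted p = 0.686 with limma). That value depends on the normalisation, since median centring in place of loess put P4hb at 0.41, where it passed higher (adjusted p = 0.00959 with limma), and the median of the partner list at 0.06 in place of -0.03. Crtap, which forms the prolyl 3-hydroxylation complex with P3h1 and Ppib, was at -0.01, P3h1 at -0.13 and Ppib at -0.18, and none of them passed. Under median centring Ppib also passed higher, at 0.26 (adjusted p = 0.0270 with limma), so that 2 of the 10 partners passed higher and Fkbp10 alone passed lower.

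Of 14 measured genes of procollagen export and processing, 2 passed lower and 1 passed higher, with a list median of -0.11 (-0.0040 under median centring, with the same counts). Adamts2, which removes the amino-terminal propeptide of procollagen, was at -0.48 ± 0.10 (SD, n = 4; adjusted p = 0.00938 with limma). Its 3 other probes read -0.10, -0.07 and 0.07. Pcolce, which enhances removal of the carboxy-terminal propeptide, was at -0.39 ± 0.16 (SD, n = 4; adjusted p = 0.0195 with limma). Adamts3, a related amino-propeptidase, was higher at 0.18 ± 0.04 (SD, n = 4; adjusted p = 0.0378 with limma), with other probes at 0.20 and -0.08. Dimmer probes of Mia3 (-0.32, adjusted p = 0.0140 with limma) and Ctage5 (-0.30 and -0.51, adjusted p = 0.0476 and 0.0272 with limma) passed lower. The brightest Mia3 and Ctage5 probes, at -0.11 and -0.13, did not, nor did the remaining probes at -0.16 (Mia3) and 0.07 (Ctage5).

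By their brightest probes none of the 6 cross-linking genes passed with limma, 1 of them had an unadjusted p under 0.05, and their median was -0.03. The second Loxl2 probe passed lower at -0.21 (adjusted p = 0.0292 with limma), while the brightest Loxl2 probe was at -0.02. Tgm2, a transglutaminase, was at -0.30 ± 0.26 (SD, n = 4; adjusted p = 0.0754 with limma), but at 0.02 under median centring. Loxl1, a lysyl oxidase that acts on the lysines and hydroxylysines of collagen and elastin, was at -0.11 ± 0.15 (SD, n = 4; adjusted p = 0.282 with limma).

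The substrates of the hydroxylases were read as 13 collagen chains, and no test set them against the enzymes. Of these chains, 6 passed lower and 0 passed higher, and 8 had an unadjusted p under 0.05. The list median was -0.30, against -0.13 for the 7 members taken by their brightest probe. Col3a1, a fibrillar chain, was at -0.51 ± 0.15 (SD, n = 4; adjusted p = 0.0115 with limma), but its other probes read 0.09 and 0.01. Col6a3, a chain of the beaded filaments, was at -0.50 ± 0.09 (SD, n = 4; adjusted p = 0.00855 with limma), but its other probes read 0.09 and 0.20.

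5 of the 6 chains that passed had another tested probe, and in 1 of them, Col1a1, another probe passed the same way. When all tested probes of a gene were averaged, 2 collagen chains passed and the median was -0.14. Leaving out array 1, 2, 3 or 4 gave 3, 0, 7 or 4 chains lower, and the scanner's processed signals gave 3. Median centring gave 5 lower and 1 higher (Col18a1, at 0.55), with a median of -0.27.

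**Figure D3:**
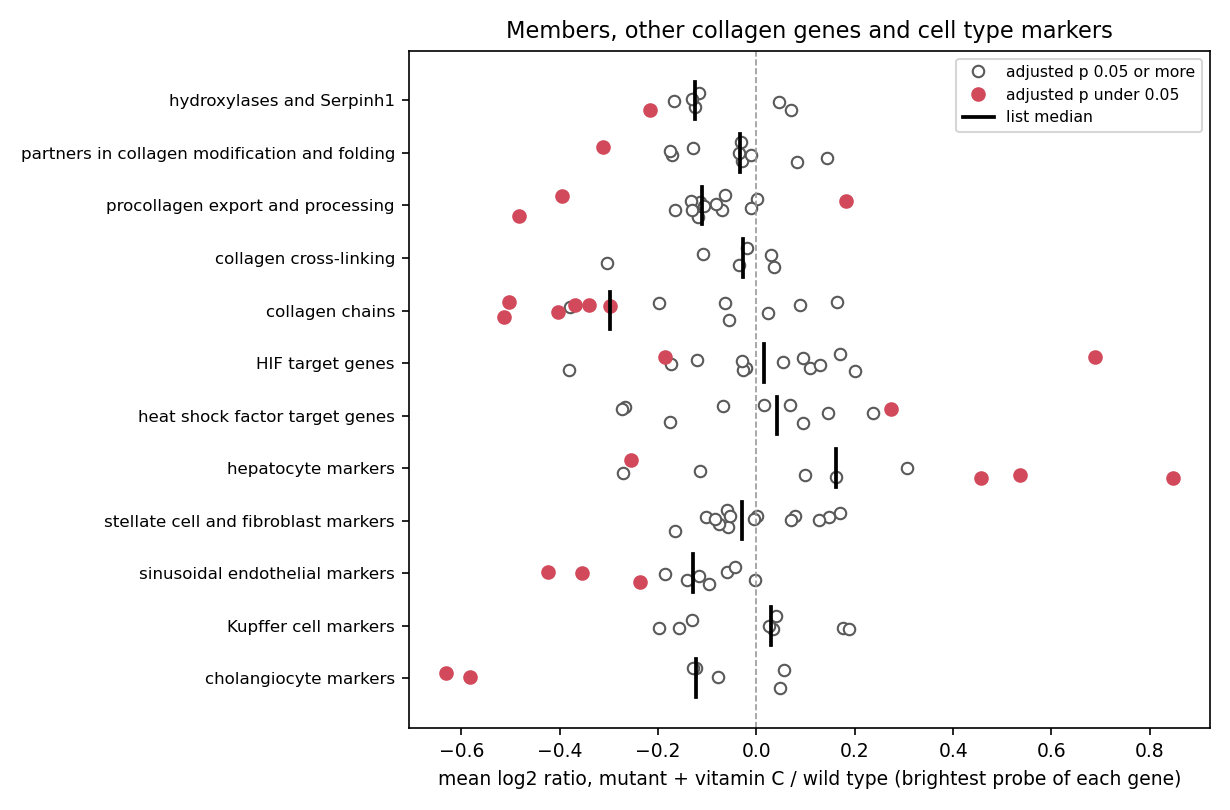
Log2 ratio of mutant over wild type (horizontal axis) for the brightest probe of each gene in the member list, the lists of genes that act with the members and the marker lists, with filled points for genes past an adjusted p of 0.05 and a bar at each list's median. The collagen chains have 6 filled points below 0 and a median of -0.30, and the members have 1 filled point and a median of -0.13.

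Genes were ranked by the root mean square difference of their log2 ratio from that of Plod2 over the 4 arrays. Among the 74 genes of these lists and the members, the closest 3 were Higd1a (0.0921), Sec31a (0.0937) and Col5a1 (0.115). The measure takes closeness in size, not a shared order of the arrays. Higd1a was lowest on array 1 (-0.28) and Col5a1 on arrays 1 and 2 (both -0.34). Sec31a, like Plod2, was lowest on array 3 (-0.27). Higd1a encodes a small mitochondrial membrane protein, Sec31a an outer coat protein of the vesicles that leave the endoplasmic reticulum, and Col5a1 a minor fibrillar collagen chain. The likeness holds for the brightest probe of each gene, and the other probes of Higd1a and Col5a1 read 0.16 and 0.03. This is a description over 4 arrays that share their hybridisations.

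P4ha1, P4ha2, Plod1 and Plod2 are known targets of hypoxia-inducible factor, whose own prolyl hydroxylases belong to the same enzyme class, so other HIF targets were read beside them. By their brightest probes, 1 of 14 genes passed higher and 1 lower, and the median was 0.02. A dimmer probe of Vegfa (-0.33, adjusted p = 0.0296 with limma) and of Ero1a (-0.28, adjusted p = 0.0326 with limma) also passed lower. The brightest Vegfa and Ero1a probes, at -0.17 and -0.03, did not. Pdk1, which restrains entry of pyruvate into the citric acid cycle, was at 0.69 ± 0.28 (SD, n = 4; adjusted p = 0.0145 with limma), and its other probe passed at 0.56. Higd1a was at -0.19 ± 0.07 (SD, n = 4; adjusted p = 0.0461 with limma), but its other probe read 0.16 and median centring turned the first probe to 0.09. Serpinh1 is a heat shock protein, and of 10 heat shock factor targets 1 passed higher, Hspe1, the mitochondrial co-chaperonin, at 0.27 ± 0.14 (SD, n = 4; adjusted p = 0.0362 with limma). The median of that list was 0.04. Under median centring 5 of the heat shock targets passed higher with a median of 0.17, and 3 of the HIF targets passed higher and 1 lower with a median of 0.13. When probes were averaged within genes, the medians of the heat shock and HIF lists turned to -0.03 and -0.02.

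Promoters were read for the short core of the hypoxia response element, ACGTG, and for the inverted pair of heat shock element units, TTCNNGAA, on both strands. RefSeq promoters on GRCm38.p6, from 250 bases before to 50 after the start of transcription, were on hand for 6 of the 7 members, without Plod2. The 6 member promoters had a GC content of 53.3% to 70.3%. ACGTG was found in 4 of the 6 promoters, against 19.6% of 32851 mouse promoters of the same length, which were not matched for GC content. The windows of 30 bases around these matches are shown on the gene's own strand, to place the motif in each promoter that holds it. Capitals mark the motif, and CACGT is ACGTG on the opposite strand.
P4ha1 chr10:59323268-59323297 (+): tgtgacagagcgCACGTagcgagggctgcg
P4ha2 chr11:54100834-54100863 (+): tgtgcatcgcatACGTGcagcgcgtggcgg
P4ha2 chr11:54100922-54100951 (+): cgggaggtggggACGTGgcggaggctcaag
Plod3 chr5:136986953-136986982 (+): cttgaagtcattACGTGatgttcccttgga
Serpinh1 chr7:99353393-99353422 (-): accctgcttttcCACGTccaggaccgcgga
The P4ha1 match lay at -16 from the start of transcription and the P4ha2 matches at -78 and 11. Those of Plod3 and Serpinh1 lay at -54 and -171. TTCNNGAA was found in 1 of the 6 promoters, that of P4ha2, against 8.52% of all. None of the 4 genes with ACGTG passed the test, and their brightest probes had mean log2 ratios of 0.07 (P4ha1), -0.13 (P4ha2), 0.05 (Plod3) and -0.17 (Serpinh1). A match in these letters is a description of the window only.

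Markers of liver cell types were read on the same arrays, since the members are made in some cells more than in others. All 14 markers of stellate cells and fibroblasts were well above background on all 4 arrays in both channels. None of them passed with limma, 2 had an unadjusted p under 0.05, and their median log2 ratio was -0.03 (0.04 under median centring, where Tagln passed higher). The ratio was negative for 8 of the 14. Tagln was at 0.15 ± 0.12 (SD, n = 4; adjusted p = 0.130 with limma) and Thy1 at 0.13 ± 0.11 (SD, n = 4; adjusted p = 0.148 with limma), the 2 of smallest p. The second Tagln probe read -0.13 and that of Thy1 0.18. The mean log2 level of the list was 10.96 to 11.03 in mutants and 10.92 to 11.11 in wild types, and the groups overlapped.

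Of 10 sinusoidal endothelial markers, 3 passed lower and all 10 had negative ratios, with a median of -0.13. Gpr182 was at -0.42 ± 0.26 (SD, n = 4; adjusted p = 0.0359 with limma) and Clec4g at -0.35 ± 0.20 (SD, n = 4; adjusted p = 0.0337 with limma). The other Gpr182 probe read -0.21 and did not pass, and the other Clec4g probes read 0.04 and 0.11. The 3 lower markers became 1 under median centring (Gpr182, with the list median at -0.07 and Fcgr2b and Dnase1l3 above 0), 0 with the scanner's processed signals and 1 when probes were averaged within genes. The mean log2 level of the list was 11.87 to 12.01 in mutants and 12.00 to 12.23 in wild types. Their per-array medians were -0.09, -0.09, -0.08 and -0.33, lowest on array 4 as for the members. The medians of the collagen chains (-0.39), HIF targets (-0.05) and Kupffer cell markers (-0.25) were also lowest on array 4. Their part in the member ratios was not tested.

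Of 7 cholangiocyte markers, 2 passed lower, Spp1 at -0.63 ± 0.32 (SD, n = 4; adjusted p = 0.0223 with limma) and Sox9 at -0.58 ± 0.37 (SD, n = 4; adjusted p = 0.0339 with limma). The other Sox9 probes read 0.01 and -0.23. Median centring gave 4 lower and processed signals 1. Their mean level was 8.83 to 9.12 in mutants and 9.08 to 9.22 in wild types, and their part in the member ratios was not tested. None of 8 Kupffer cell markers passed with limma and 0 had an unadjusted p under 0.05. Their ratios ran from -0.20 to 0.19 with a median of 0.03, and the 2 of smallest p were Adgre1 at 0.19 (adjusted p = 0.317 with limma) and Vsig4 at 0.18 (adjusted p = 0.334 with limma).

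Of 9 measured hepatocyte markers, 3 passed higher and 1 lower, with a median of 0.16. Median centring gave 7 higher and 0 lower with a median of 0.74, and the scanner's processed signals gave 1 higher and 0 lower with a median of -0.03. Alb was at 0.85 ± 0.21 (SD, n = 4; adjusted p = 0.00732 with limma) and Tat, a tyrosine-degrading enzyme, at 0.54 ± 0.26 (SD, n = 4; adjusted p = 0.0219 with limma). Hnf4a, a hepatocyte transcription factor, was at -0.25 ± 0.10 (SD, n = 4; adjusted p = 0.0288 with limma), a call lost under median centring (-0.13, adjusted p = 0.208 with limma), and its other probes read -0.01 and -0.15. All 9 were well above background on all 4 arrays in both channels, and their part in the member ratios was not tested.

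**Figure D4:**
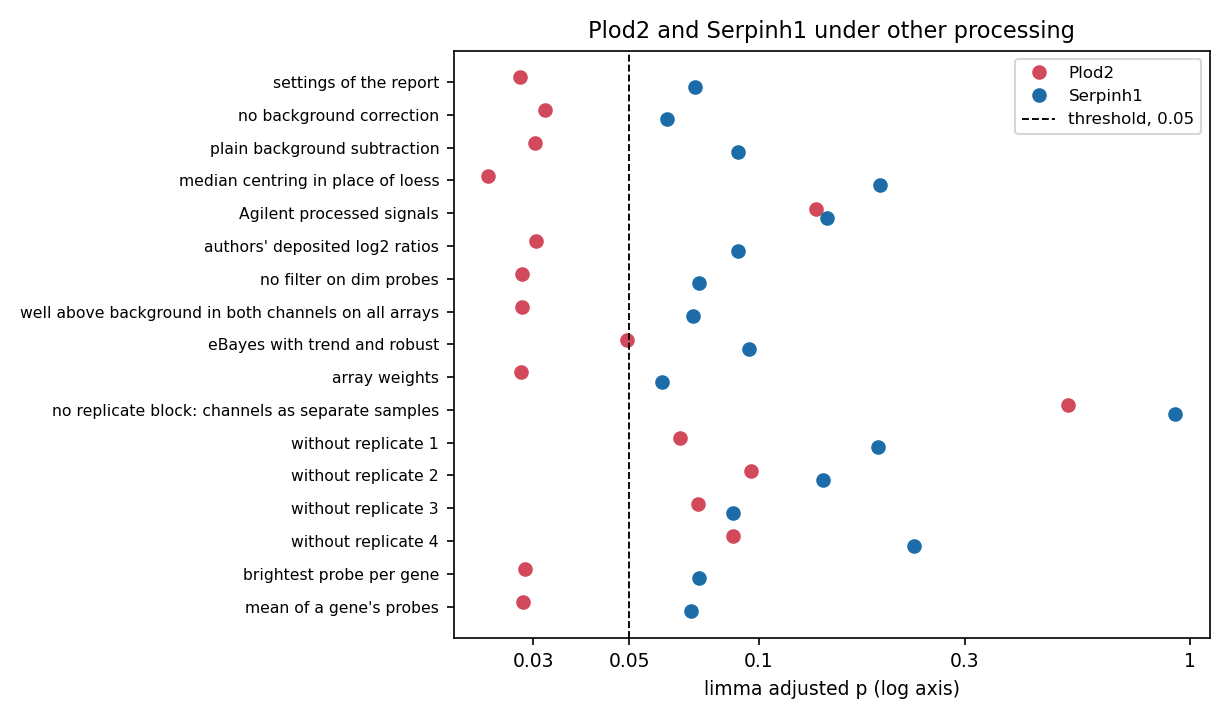
Adjusted p from limma (horizontal log axis) for Plod2 and Serpinh1 under the processing of the text and under each alternative, including the omission of each array, with a dashed line at 0.05. The Plod2 points run from 0.0235 to 0.520 and cross the line when any array is left out, while the Serpinh1 points all lie above it, from 0.0596.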

How the data were processed

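Liver RNA of 4 treated mutant and 4 wild-type mice was measured on 4 arrays scanned with Feature Extraction 10.5.1.1 according to the headers. The deposited scanner output gives the median foreground and background intensity of each spot. The log10 ratio of red over green was computed by Feature Extraction from background-subtracted, dye-normalised signals before it was deposited, per the file headers, and was turned to log2 as an alternative. The authors' deposited table holds log2 ratios, p-values and a signed fold-change score for 43379 spots, and names the genes. The submitters' processing notes name limma. Those log2 ratios were matched by plain background subtraction and loess of the same intensities (r of 0.999988 to 0.999996 over probes per array, slope 1.00).

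Here intensities were corrected by normexp (offset 50) and normalised by loess with control spots at weight 0. Control and outlier-marked spots were left out, and spots of a probe were averaged. Probes were kept if well above background on at least 3 arrays in either channel with a ratio on at least 3. The fit used R 4.3.3 and limma 3.58.1 on the log2 ratios. Channel levels followed Aquantile scaling. Each array pairs a mutant with the wild type of the same replicate number by hybridisation, so the ratio contains the pairing. The steps were tested on simulated data. Arrays have no read depth, so the number of arrays limits the precision.

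Every member probe is reported. In each other list up to 2 genes past the threshold per direction, largest ratio first, were named, or otherwise the 2 of smallest p. P4hb, Crtap, P3h1, Ppib, Mia3, Ctage5, Loxl2, Col1a1, Col18a1, Vegfa, Ero1a, Fcgr2b and Dnase1l3 were named outside that rule, after their values were seen. Members and lists were chosen with earlier results of these data known. Older symbols were matched for genes renamed since the array was designed. Tll2 was not kept and Pck1 was not matched. Alternatives covered background correction, normalisation, processed signals, the authors' ratios, dim-probe filters, moderation, array weights, the array pairing, probe summary, threshold and each array in turn.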

Additional observations from a re-analysis of the deposited data

Results flagged for a closer look

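In 27 groups of 4 animals or arrays checked for a value far from the rest, 1 was marked, and chance marks about 1 in 20 such groups. It was the wild-type level of the brighter P4ha1 probe, A_51_P458067. The wild-type animal of array 1 was at 10.43 on the log2 scale and the other wild types were between 9.87 and 9.95, so that the gap to the nearest was 0.864 of the whole range. The mutant on the same array was also the highest of its group, at 10.47, and the P4ha1 ratio of that array was 0.04.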

How the results depend on the processing

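Of 18 alternatives, Plod2 kept its call in 11 and its negative sign in all 18. Only those of background correction, normalisation, processed signals and the authors' ratios could have turned that sign. Several of the 11 could hardly have lost the call either. The threshold of 0.10 is looser, and the dim-probe filters and probe summaries left the Plod2 ratio at -0.22. The authors' ratios nearly repeat plain background subtraction. The count of member probes past the threshold was 1 in the main analysis. It was 0 with the scanner's processed signals (2 with an unadjusted p under 0.05 in limma), 0 with no replicate block, in which the array pairing was not modelled (0 at unadjusted p under 0.05), 0 at a threshold of 0.01, 2 at 0.10, and 0 to 0 when each array was left out. The count of member genes moved in the same way, with 0, 0, 0, 2, and 0 to 0. For all probes the count of 5076 became 1196 with processed signals, 26 with no replicate block, 163 at 0.01, 9473 at 0.10, and 160 to 2270 with an array left out. Counted once per gene, with each unnamed probe as a gene of its own, it was 3192 by brightest probe and 2724 by the mean of a gene's probes. For the 67 genes of the partner, export, cross-linking, collagen, HIF and heat shock lists, the 13 past the threshold became 21 with median centring, 6 with processed signals, 0 with no replicate block (13 at unadjusted p under 0.05), 2 at 0.01, 7 by the mean of probes, and 0 to 11 with an array left out (0 without array 2). The brighter P4ha1 probe changed sign to -0.030 with processed signals and to -0.018 as the mean of its gene's probes. Plod3 A_51_P372172 changed sign to -0.070 with processed signals. With an array left out it ran from -0.026 (without replicate 2) to 0.12, and Plod3 A_52_P207278 ran from -0.016 (without replicate 2) to 0.086. Serpinh1 stayed between -0.20 and -0.11 and passed at the 0.10 threshold only. The cause of these shifts was not tested. Median centring turned no member probe's sign and kept the Plod2 call, whereas it moved the medians of several gene lists. Signal over background limits the second P4ha2 probe.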
